A study of Homo sapiens with 96 samples.

Results

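The 49 genes described here encode proteins of mitosis: kinases and phosphatases that start it, kinesins and other spindle proteins, kinetochore and centromere proteins, condensin subunits, and proteins of cytokinesis. They were chosen by name, without the cyclins, and all 49 were listed among the 23621 gene names of the expression tables. Most of them are transcribed late in the cell cycle. In G0 and early G1 the DREAM complex holds their promoters silent through the CHR element (cell cycle genes homology region), and later the MuvB core of that complex binds the same element with MYBL2 and FOXM1 and switches them on. CCAAT boxes, bound by the factor NF-Y, usually lie just upstream. Their RNAs therefore start low in G1, climb through S phase and peak in G2 and mitosis, and they are widely read as a sign of dividing cells.

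The cells were hTERT-RPE1, an established human line of retinal pigment epithelium immortalised with telomerase. Synchronised cells were collected in 5 windows, named T0-2, T2-4, T4-6, T6-8 and T8-10, and set against asynchronous cells. From each the RNA that the labels call nascent and the input RNA were sequenced from whole cells and from nuclei, with 2 libraries per group. Per the labels, synchronisation was done with 400 uM mimosine for 22 h, a drug that stops cells before DNA replication, so drug and window cannot be told apart in the comparison with asynchronous cells. In a second experiment LINC00704 (named MANCR in the tables), LUCAT1 or MIAT, which are long non-coding RNAs, was knocked down and set against control cells, at the points S0, S2, S4 and S6 of synchronised cells with 2 libraries each, and in asynchronous cells with 3 knockdown and 2 control libraries. The protocol text of the knockdown and control samples, which they share, names 130 to 150 pmol of LNA GapmeRs (antisense oligonucleotides) and does not say what the controls received. The window and asynchronous samples of the first experiment carry the same text as the synchronised knockdown samples, with both agents in it, so the labels do not tie an agent to single groups there. Asynchronous knockdown and control libraries are also described as nascent RNA. The labels name no unit for the window and point numbers. They do not say that replicates were separate cultures, and the spread behind every p-value, that between libraries, may thus be technical. The same control libraries serve the 3 knockdowns.

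Many, but not all, of the members' promoters hold letters of the elements named above. Shown are 7 that hold both, chosen with these matches known, to let the spacing of the elements be seen in genes that recur in the comparisons. Each line is the 120 bases before the start of the gene, 5′ to 3′ on the gene's strand, from RefSeq on GRCh38.p14. Capitals mark the letters of CHR elements, TTTGAA or the variant TTTAAA, and the box CCAAT on either strand. From the other strand TTTGAA reads as TTCAAA, and the CCAAT box reads as ATTGG. PLK1 is at chr16:23678769-23678888, CDC20 at chr1:43358861-43358980, KIF20A at chr5:138178992-138179111, CENPF at chr1:214603075-214603194 and HMMR at chr5:163460512-163460631, all on the plus strand. DLGAP5 is at chr14:55191586-55191705 and MKI67 at chr10:128126424-128126543, both on the minus strand.
PLK1: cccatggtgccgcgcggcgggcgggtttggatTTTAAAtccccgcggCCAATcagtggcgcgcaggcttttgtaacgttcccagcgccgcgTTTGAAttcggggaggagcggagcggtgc
CDC20: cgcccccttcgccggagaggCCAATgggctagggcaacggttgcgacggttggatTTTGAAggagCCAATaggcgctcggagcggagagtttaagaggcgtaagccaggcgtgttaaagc
KIF20A: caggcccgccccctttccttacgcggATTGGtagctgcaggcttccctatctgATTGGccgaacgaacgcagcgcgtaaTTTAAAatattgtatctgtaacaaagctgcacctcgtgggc
CENPF: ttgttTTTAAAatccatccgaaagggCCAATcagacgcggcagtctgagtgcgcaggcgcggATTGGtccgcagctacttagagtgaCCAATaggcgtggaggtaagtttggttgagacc
HMMR: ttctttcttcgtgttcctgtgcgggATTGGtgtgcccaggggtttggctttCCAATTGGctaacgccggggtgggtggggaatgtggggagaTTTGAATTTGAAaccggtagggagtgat
DLGAP5: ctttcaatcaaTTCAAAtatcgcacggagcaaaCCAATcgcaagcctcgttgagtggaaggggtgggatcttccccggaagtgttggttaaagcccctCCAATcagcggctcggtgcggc
MKI67: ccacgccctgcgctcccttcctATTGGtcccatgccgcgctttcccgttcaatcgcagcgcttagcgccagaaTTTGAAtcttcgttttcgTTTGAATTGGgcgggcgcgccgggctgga

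RefSeq promoters were matched for 42 of the 49 members. Within 250 bases before the start, TTTGAA was present on either strand in 22 of 42 members (52.4%), against 13.6% of all 27305 promoters in the table. TTTAAA was present in 11 (26.2%), against 11.4% of all promoters. CCAAT was present in 30 (71.4%), against 33% of all promoters. A CHR-like motif (TTTGAA or TTTAAA) together with CCAAT was present in 24 members (57.1%), against 7.85% of all promoters. The PLK1 promoter held TTTGAA 29 bases and CCAAT 73 bases before the start. That of CDC20 held TTTGAA 65 bases before the start with a CCAAT box 55 and another 100 bases before it, and that of KIF20A held TTTAAA 41 bases before the start with CCAAT on the other strand 67 and 94 bases before it. Not every member held both: within the 250 bases AURKB held CCAAT without a CHR-like motif, and CENPE held TTTAAA without CCAAT. A match of letters is a description and not a binding site.

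Depth ran from 6.39 to 50.5 M recovered reads per library, lowest in whole-cell nascent RNA and highest in asynchronous MIAT knockdown cells. KRT18, an epithelial keratin, was between 4.90 and 25.2 RPKM in the whole-cell input libraries and OTX2, a pigment epithelium transcription factor, between 0.732 and 2.64. RPE65 and TYR, which define mature pigment epithelium, were at most 0.169 and 0.263 RPKM there, so the mature markers were close to 0. PTPRC, the pan-leukocyte marker, was at most 0.0640 RPKM there. HBB, a blood marker, ran from 0.179 to 72.4 RPKM in whole-cell nascent RNA, with a median of 1.12, and from 0.0644 to 3.35 in nuclear nascent RNA. Of the mesenchymal markers, COL1A1 ran from 0.435 to 13.6 RPKM and PDGFRB from 0.289 to 1.40 in whole-cell input RNA. COL1A2 was at most 0.387 there. In a principal component analysis of whole-cell input RNA, the leading component (72.7% of the variance) separated the window libraries by replicate number, and in the synchronised MIAT table the second knockdown library at S6 stood farthest from the rest. Both facts bear on results below.

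RPKM counts reads per kilobase and corrects for the depth of a library. Here the kilobases are those of the whole gene span with introns, since the deposited length was within 10% of the RefSeq span for 43 of the 49 members, whose spans run from 4.249 to 130.743 kb. All differences are on a log2 scale after adding 0.25 RPKM, which understates the change of weak genes. They were tested with limma across all genes of a table, and a gene is said to rise or fall when its Benjamini-Hochberg adjusted p was under 0.05. In bulk RNA a smaller share of cells in mitosis and less RNA per cell cannot be told apart.

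Nuclear nascent RNA gave the clearest difference between the windows and asynchronous cells. Of 48 members tested, 10 fell and 0 rose, where 2.54% of all 9784 genes fell and 1.95% rose. The median difference of the members was -0.27, against -0.01 over all genes, and 35 of 48 were lower in the windows. The 10 were KIF20A, CDC20, PLK1, AURKA, DLGAP5, CENPF, BUB1, NEK2, HMMR and PTTG1. By role they were 4 of 10 kinases and phosphatases, 2 of 4 genes of the anaphase-promoting complex and its targets, 1 of 8 kinesins, 1 of 8 kinetochore and centromere genes, and 2 of 11 spindle genes, with 0 of 4 chromosome structure genes and 0 of 2 cytokinesis genes.

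KIF20A, the kinesin that carries the chromosomal passengers to the midzone, had 4.13 and 4.65 RPKM in T0-2, 3.93 and 4.7 in T2-4, 5.37 and 3.42 in T4-6, 4.68 and 5.75 in T6-8 and 8.76 and 7.31 in T8-10, against 25.0 and 29.9 RPKM in asynchronous nuclei. Every window library was below both asynchronous libraries, and T8-10 was the highest window. The difference was -2.37 ± 0.21 (log2, SE; 10 window and 2 asynchronous libraries; limma adjusted p = 0.00125). CDC20, which activates the anaphase-promoting complex, had 2.43 and 2.30 RPKM in T0-2, 2.77 and 3.50 in T2-4, 3.78 and 2.47 in T4-6, 4.28 and 3.75 in T6-8 and 6.46 and 7.76 in T8-10, against 16.3 and 22.6 in asynchronous nuclei. The groups did not overlap, and the difference was -2.32 ± 0.21 (adjusted p = 0.00125, limma).

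PLK1, the kinase that drives mitotic entry and spindle assembly, had 0.864 and 0.410 RPKM in T0-2, 0.889 and 0.856 in T2-4, 1.27 and 0.947 in T4-6, 1.49 and 2.09 in T6-8 and 3.30 and 3.11 in T8-10, against 3.49 and 4.92 in asynchronous nuclei. The T8-10 libraries lay just under the lower asynchronous one, and the difference over all windows was -1.50 ± 0.22 (limma adjusted p = 0.00943). AURKA, the kinase of spindle poles, was between 1.17 and 2.41 RPKM in the windows, against 4.22 and 4.36 in asynchronous nuclei, and fell by 1.24 ± 0.18. CENPF, a large kinetochore protein, averaged 8.65 RPKM in the windows and 17.3 in asynchronous nuclei and fell by 1.02. DLGAP5, which stabilises kinetochore fibres, fell by 1.04, the checkpoint kinase BUB1 by 0.99, the centrosome kinase NEK2 by 0.99, the spindle protein HMMR by 0.95 and PTTG1 (securin) by 0.92.

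Other members of the same machinery did not pass the test in nuclear nascent RNA. CDK1, the master kinase of mitosis, averaged 6.41 RPKM in the windows and 5.42 in asynchronous nuclei, a difference of 0.18 ± 0.33. AURKB, the kinase of the passenger complex, differed by 0.14, its partner BIRC5 (survivin) by -0.93 (adjusted p = 0.124), TOP2A (topoisomerase II alpha) by -0.49, the proliferation marker MKI67 by -0.41 and CENPE, the kinetochore kinesin, by -0.18. FOXM1, the transcription factor that activates many of these genes, had the highest positive difference of all members, 0.53 ± 0.17 (adjusted p = 0.114). KIF20A and FOXM1 were the lowest and the highest of the 48 members.

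Of these 48 members, 14 had every window library below both asynchronous libraries, where 9.52% of all genes did so, and 0 had every window library above them, where 5.37% did. Within replicate number 1, 38 of 48 members were lower in the windows (median -0.33), and within replicate number 2, 33 of 48 were (median -0.29). Leaving out the second asynchronous library ended every call (0 of 48), with KIF20A then at -2.25 ± 0.30 and an adjusted p of 0.0516, and leaving out the first left 2. With quantile normalization 6 members were called.

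Among genes outside the 49, cyclins B1 and B2, the partners of CDK1, fell: CCNB1 by 1.89 and CCNB2 by 0.92. They were 2 of the 4 cyclins tested. Of 56 other mitotic genes 2 fell, KNSTRN (a kinetochore and spindle protein) by 0.80 and NCAPD2 (a condensin subunit) by 0.70, and 0 of 8 DREAM and MuvB subunits changed.

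Counted window by window against asynchronous nuclei, 9 members fell in T0-2, 9 in T2-4, 5 in T4-6, 3 in T6-8 and 1 in T8-10. The background of genes that fell went down too, at 1.7, 1.33, 0.501, 0.194 and 0.0715% of all genes in the same order. KIF20A was called in all 5 windows, at differences of -2.57, -2.60, -2.60, -2.34 and -1.74 in order of the windows.

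**Figure D1:**
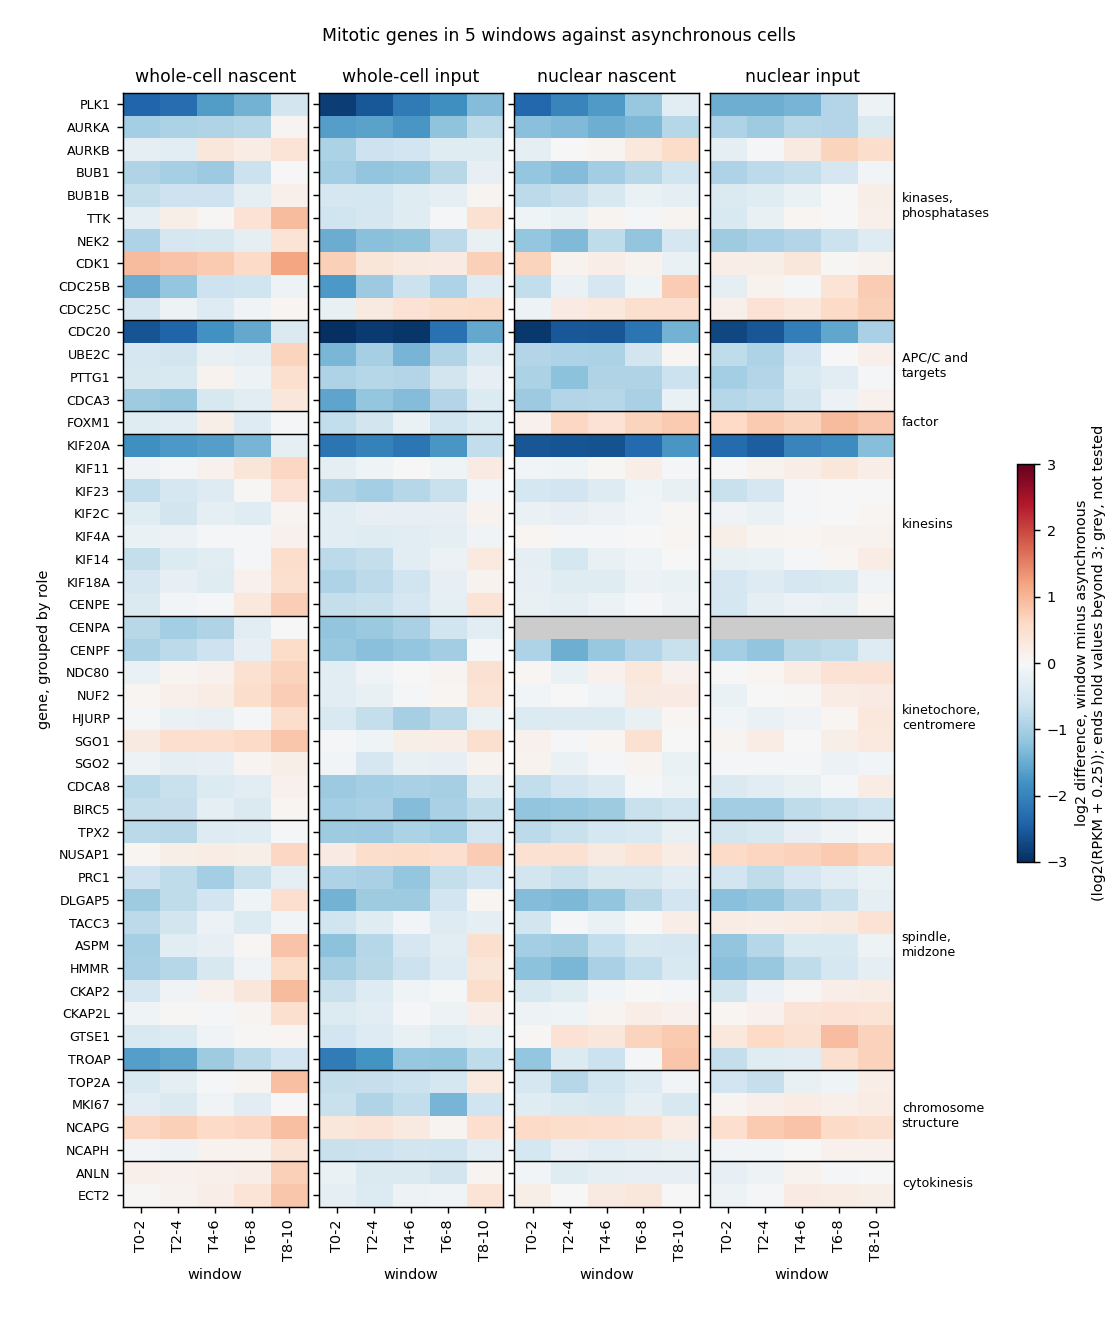
Log2 difference (colour) of each of the 49 members (rows, by role) in each window minus asynchronous cells (columns, T0-2 to T8-10, in 4 kinds of RNA). KIF20A, CDC20 and PLK1 have the lowest differences over the windows in every kind of RNA, down to -2.53 for CDC20 in whole-cell input.

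From T0-2 to T8-10 the members' nuclear nascent RNA was mostly higher in the later window. PLK1 rose by 2.01 ± 0.28, with the values given above (mean 3.21 RPKM in T8-10 and 0.637 in T0-2; limma adjusted p = 0.0342). TROAP, a protein needed for spindle assembly, had 3.62 and 7.10 RPKM in T8-10 and 1.27 and 0.918 in T0-2 and rose by 2.00 ± 0.31 (adjusted p = 0.0445). These were the 2 members of 48 that rose, and 0 fell, where 0.112% of all genes rose and 0.245% fell. In all, 40 of 48 members were higher in T8-10, with a median of 0.42 against 0.15 over all genes.

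CDC20 was at 7.11 RPKM in T8-10 and 2.36 in T0-2, a difference of 1.49 (adjusted p = 0.0601), and the phosphatase CDC25B, which activates CDK1, differed by 1.49 (0.0785). Smaller differences were those of KIF20A (0.83), AURKB (0.82), FOXM1 (0.66), BIRC5 (0.58), TOP2A (0.42) and CENPE (0.07), and negative ones those of MKI67 (-0.10) and CDK1 (-0.85), none of which passed the test. KNSTRN, outside the 49, rose by 1.10. The second T8-10 and the second T0-2 library lay at opposite ends of the leading principal component of this RNA, at 50.4 and -40.9. All other libraries lay between -27.8 and 14.4. Without the first T8-10 library 4 members were called, and without any single other library 0 were. Within replicate number 1, 46 of 48 members were higher in T8-10 (median 0.53), and within replicate number 2, 26 of 48 were (median 0.16, against 0.24 over all genes). Shorter members differed more, with a Spearman correlation of -0.58 between difference and gene length over 48 members, against -0.31 over 9569 genes with a length. These points share libraries.

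KIF20A and CDC20 also had the lowest differences of all members in nuclear input RNA. KIF20A had 3.05 and 4.58 RPKM in T0-2, 2.81 and 3.87 in T2-4, 3.81 and 5.85 in T4-6, 4.74 and 5.56 in T6-8 and 6.91 and 9.18 in T8-10, against 20.3 and 18.9 in asynchronous nuclei, and fell by 1.99 ± 0.23 (limma adjusted p = 0.00598). CDC20 had 2.00 to 8.72 RPKM in the windows, against 14.0 and 20.8, and fell by 1.98 ± 0.27 (0.00969). AURKA fell by 0.83 and DLGAP5 by 0.86. NUSAP1, which bundles spindle microtubules, was between 3.53 and 4.38 RPKM in the windows, against 2.68 and 2.06 in asynchronous nuclei, and was the 1 member that rose, by 0.67 ± 0.14.

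In nuclear input RNA, then, 4 of 48 members fell and 1 rose, where 2.61% of all genes fell and 1.96% rose, and the median was -0.07 against 0.00 over all genes. The direction differed by replicate number: 37 of 48 members were lower in the windows within number 1 (median -0.27), and 20 were lower and 28 higher within number 2 (median 0.07). PLK1 averaged 1.66 RPKM in the windows and 3.44 in asynchronous nuclei (-1.07, adjusted p = 0.0791). BIRC5 differed by -0.82 (0.0647), TOP2A by -0.29, CENPE by -0.24, MKI67 by 0.16, CDK1 by 0.17, AURKB by 0.22 and FOXM1 by 0.76 (0.393). CCNB1 fell by 1.51 and MAD2L1, a spindle checkpoint protein, by 0.77. Without either asynchronous library 0 members were called, and without single window libraries 3 or 4.

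In this table libraries of the same replicate number deviated together. With the number as a block in the fit, 16 members fell and 5 rose, where 18.1% of all genes fell and 16.4% rose. PLK1 was then at -1.07 ± 0.11 (adjusted p = 0.000298), and BIRC5, HMMR, CENPF, NEK2, BUB1, PTTG1 and ASPM were among those that fell. NUSAP1, FOXM1 (0.76 ± 0.13), NCAPG, GTSE1 and CDC25C were those that rose.

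Between T8-10 and T0-2 in nuclear input RNA, 0 of 48 members were called (limma; 14 higher at an unadjusted p under 0.05), where 0.27% of all genes rose. The median was 0.52, against 0.12 over all genes, with 44 of 48 members higher in T8-10. Within number 1, 47 were higher (median 0.68), and within number 2, 43 were (median 0.41). With the replicate number as a block 27 rose and 0 fell, where 15.5% of all genes rose and 6.75% fell. CDC20 averaged 8.59 RPKM in T8-10 and 2.41 in T0-2, a difference of 1.75 (adjusted p = 0.1 without the block and 0.00101 with it). PLK1 differed by 1.31, KIF20A by 1.04, AURKB by 0.83, TOP2A by 0.77, CENPE by 0.57, BIRC5 by 0.46, FOXM1 by 0.22, MKI67 by 0.13 and CDK1 by -0.08. With the block, PLK1 (0.0011), KIF20A (0.00334), TOP2A (0.0109) and CENPE (0.0315) passed, and AURKB, BIRC5, FOXM1, MKI67 and CDK1 did not.

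In whole-cell nascent RNA, PLK1 was the 1 member of 49 that fell, where 0.158% of all 10096 genes fell and 0.248% rose. PLK1 had 1.44 and 1.36 RPKM in T0-2, 1.44 and 1.6 in T2-4, 2.92 and 1.99 in T4-6, 3.20 and 2.72 in T6-8 and 5.37 and 5.84 in T8-10, against 12.3 and 5.63 in asynchronous cells. The second asynchronous library lay inside the range of T8-10, and the difference over all windows was -1.66 ± 0.27 (limma adjusted p = 0.0437). It lost the call without any 1 library other than the second asynchronous one, and with a pseudocount of 0.1.

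The asynchronous whole-cell libraries differed widely from each other for several members. CDC20 had 6.33 and 6.17 RPKM in T0-2, 9.83 and 5.18 in T2-4, 15.2 and 7.65 in T4-6, 19.0 and 9.19 in T6-8 and 28.7 and 28.6 in T8-10, against 72.3 and 20.5 in asynchronous cells (-1.75, adjusted p = 0.15). KIF20A averaged 9.74 RPKM in the windows and 26.6 in asynchronous cells (-1.38, 0.188) and TROAP differed by -1.13 (0.0816). The other always-named members were closer to 0, namely BIRC5 at -0.41, MKI67 at -0.24, FOXM1 at -0.19, TOP2A at 0.04, AURKB at 0.08, CENPE at 0.10 and CDK1 at 0.87 (0.52). The median was -0.19, against 0.05 over all genes, with 32 of 49 members lower in the windows. Within replicate number 1, 33 were lower (median -0.37), and within number 2, 27 were (median -0.08). Of the 49, 1 had every window library below both asynchronous ones, where 3.63% of all genes did.

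All 49 members were higher in T8-10 than in T0-2 in whole-cell nascent RNA, though none passed the test over all genes, and 0 of 10096 genes did (0% background). The window libraries of this RNA also split by replicate number on the leading principal component (31.3% of the variance). The fit had no block, so that split counted as spread and the absence of calls says little. The median difference was 0.85, against 0.12 over all genes, and 22 members and 767 genes had an unadjusted p under 0.05 (limma). CDC20, with the values above, differed by 2.15 ± 0.61 (adjusted p = 0.352), ASPM, a spindle pole protein, by 1.85 and PLK1 by 1.83 ± 0.35 (0.218). HMMR had 2.90 and 2.89 RPKM in T8-10 and 0.842 and 0.850 in T0-2, a difference of 1.52 (0.32). TOP2A had 42.6 and 52.1 RPKM in T8-10 and 18.7 and 17.6 in T0-2 (1.36). In each of these genes both late libraries were above both early ones. The share of all genes for which that held was not computed, and groups of 2 libraries separate easily.

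CDK1 had the smallest difference, 0.22, at 19.0 and 11.4 RPKM in T8-10 and 16.4 and 9.67 in T0-2, so its groups overlapped. KIF20A differed by 1.54, CDC25B by 1.36, CENPE by 1.18, BIRC5 by 0.79, AURKB by 0.69, FOXM1 by 0.31 and MKI67 by 0.30. Within replicate number 1 all 49 members were higher in T8-10 (median 0.87), and within replicate number 2 all 49 were (median 0.91, against 0.15 over all genes).

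**Figure D2:**
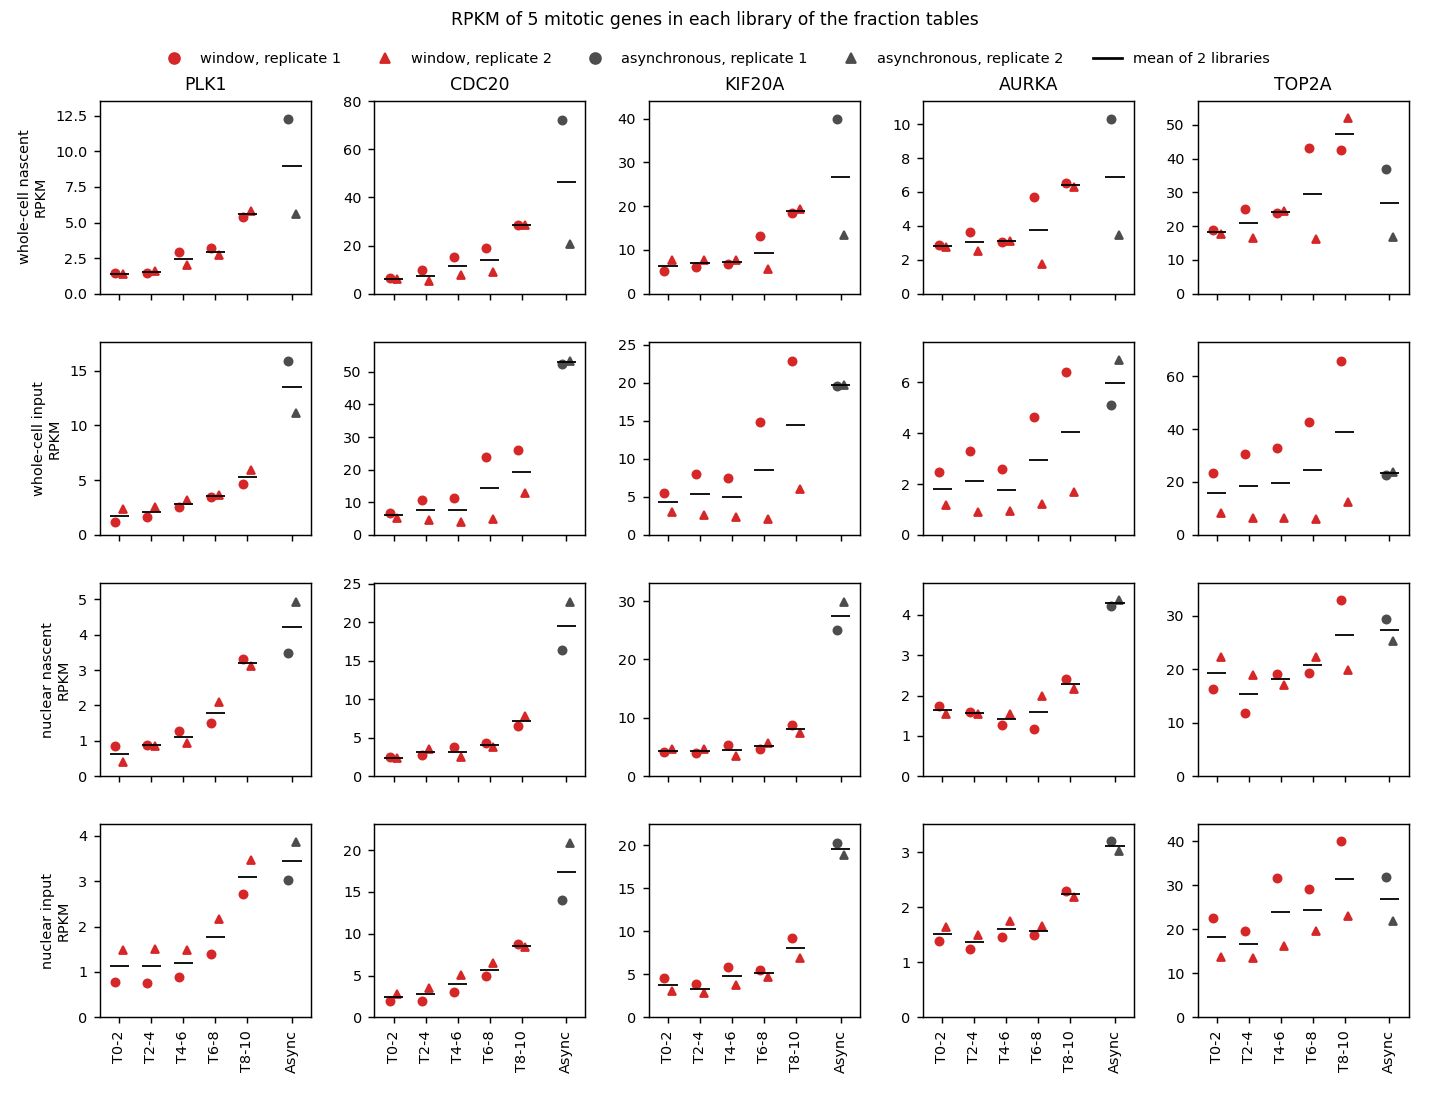
RPKM (linear axis) of PLK1, CDC20, KIF20A, AURKA and TOP2A in each library of the 5 windows and of asynchronous cells, in the 4 kinds of RNA, with points for libraries. In nuclear nascent RNA the windows of KIF20A lie between 3.42 and 8.76 RPKM, below both asynchronous libraries at 25.0 and 29.9.

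Whole-cell input RNA was split by replicate number, and the members showed it. CDK1 was between 22.2 and 32.0 RPKM in the window libraries of replicate 1 and between 1.67 and 3.74 in those of replicate 2, against 5.31 and 5.97 in asynchronous cells. TOP2A was between 23.5 and 65.8 RPKM in replicate 1 and between 5.90 and 12.2 in replicate 2, against 22.8 and 23.7 in asynchronous cells. For CDK1 every window library of replicate 1 was above, and every one of replicate 2 below, both asynchronous libraries. For TOP2A the same held except that the lowest library of replicate 1 lay between the asynchronous ones. Over the windows 28 of 49 members were lower than asynchronous within replicate number 1 (median -0.02) and 43 of 49 within number 2 (median -1.05).

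PLK1 did not follow that split. It had 1.18 and 2.34 RPKM in T0-2, 1.64 and 2.57 in T2-4, 2.56 and 3.17 in T4-6, 3.48 and 3.64 in T6-8 and 4.64 and 5.91 in T8-10, against 15.9 and 11.1 in asynchronous cells (-2.13 ± 0.31, adjusted p = 0.0898). All windows were below both asynchronous libraries. CDC20 averaged 11.1 RPKM in the windows and 52.9 in asynchronous cells (-2.53, 0.237), KIF20A differed by -1.77 (0.596), CDCA3, which promotes mitotic entry, by -1.06 (0.231), BIRC5 by -1.0, TPX2, the activator of AURKA, by -0.94, MKI67 by -0.86, AURKB by -0.58, FOXM1 by -0.50, TOP2A by -0.46, CENPE by -0.35 and CDK1 by 0.47.

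In this kind of RNA 0 of 49 members were called (limma; 6 lower at an unadjusted p under 0.05), where 0.0305% of all genes rose and 0% fell. The median was -0.50, against -0.08 over all genes. Of the 49, 8 had every window library below both asynchronous ones, where 7.69% of all genes did. From T0-2 to T8-10 again 0 were called (2 higher unadjusted, 0% background) and 48 of 49 were higher in T8-10, with a median of 0.73 against 0.09 over all genes. That fit had no block, so the split by replicate number counted as spread and the absence of calls says little. Within number 1 all 49 were higher (median 1.04) and within number 2 45 were (median 0.44). PLK1 differed by 1.51, CDC20 by 1.55, KIF20A by 1.46, CENPE by 1.12, TOP2A by 1.01, AURKB by 0.59, FOXM1 by 0.32, BIRC5 by 0.27, MKI67 by 0.08 and CDK1 by -0.01.

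In the control cells of the knockdown experiment the differences between S6 and S0 were small. CDC20 had 9.97 and 12.1 RPKM at S6 and 4.49 and 7.12 at S0 and differed by 0.93 ± 0.33 (limma adjusted p = 0.36). CDC25B differed by 0.91, AURKB by 0.64, MKI67 by 0.58, KIF23, a kinesin of the midzone, by 0.57, PLK1 by 0.47, NEK2 by 0.44, TOP2A by 0.41, CENPE and FOXM1 by 0.30 each, BIRC5 by 0.20, KIF20A by -0.04 and CDK1 by -0.27. None of 47 members was called (3 higher at an unadjusted p under 0.05), where 0.0741% of all genes rose, and 37 were higher at S6, with a median of 0.22 against 0.05 over all genes.

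Knockdown of each target was checked in its own tables. LINC00704 was at 0.550 to 1.61 RPKM in synchronised knockdown cells and 1.89 to 4.04 in control cells (MANCR, -1.51, limma adjusted p = 0.00256), and at 0.484 to 0.793 against 1.76 and 1.94 in asynchronous cells (-1.26, 0.0956). LUCAT1 was at 0.133 to 0.379 RPKM against 0.440 to 0.994 (-0.98, 0.00128), and at 0.311, 0.128 and 0.124 against 0.469 and 0.495 in asynchronous cells. MIAT was at 0.0718 to 0.221 RPKM against 0.243 to 0.324, and at 0.152, 0.0561 and 0.0766 against 0.379 and 0.345, under the minimum level for testing. Each target was lower in every knockdown library than in every control library of its table.

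In synchronised cells with LUCAT1 knocked down, 7 of 49 members fell and 2 rose, where 8.12% of all 9870 genes fell and 19% rose. PRC1, which bundles microtubules in the midzone, had 0.314 and 0.40 RPKM at S0, 0.273 and 0.513 at S2, 0.421 and 0.575 at S4 and 0.687 and 0.361 at S6 in knockdown cells, against 0.702 to 1.17 in control cells. No knockdown library reached the lowest control library, and PRC1 fell by 0.69 (limma adjusted p = 0.00741). It was the 1 member without overlap, where 0.932% of all genes were lower without overlap.

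TACC3, a spindle microtubule protein, fell by 0.63 (0.0281), CDCA3 by 0.60, KIF20A by 0.58, CDC25B by 0.54, FOXM1 by 0.40 and UBE2C, the ubiquitin-conjugating enzyme of the anaphase-promoting complex, by 0.38 (0.0461). NCAPG, a condensin subunit, rose by 0.54 (0.0385). ECT2, which activates RhoA for cytokinesis, rose by 0.65 (0.0451) with 6.24 and 2.33 RPKM at S0, 5.17 and 2.84 at S2, 1.66 and 2.63 at S4 and 2.28 and 2.88 at S6 in knockdown cells, against 0.941 to 2.77 in control cells, so the largest excess was in the first knockdown library at S0 and S2.

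The other always-named members did not pass with LUCAT1 knocked down: CDK1 differed by 0.45, CENPE by 0.24, CDC20 by 0.06, MKI67 by 0.04, BIRC5 by -0.06, TOP2A by -0.15, PLK1 by -0.17 and AURKB by -0.18. The median was -0.02, against 0.11 over all genes. Of 55 other mitotic genes 4 fell (SPC24, PSRC1, PIMREG and INCENP) and WEE1, the kinase that restrains CDK1, rose. Calls ranged from 2, without the second S0 control library, to 10, without the second S4 control library.

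In synchronised cells with MIAT knocked down, 5 of 47 members fell and 0 rose, where 2.79% of all 9528 genes fell and 4.84% rose. UBE2C had 5.27 and 7.20 RPKM at S0, 5.58 and 7.58 at S2, 4.77 and 8.13 at S4 and 7.31 and 4.96 at S6 in knockdown cells, against 9.08 to 11.6 in control cells. It was the 1 member without overlap between the 8 knockdown and 8 control libraries (0.325% of all genes), and it fell by 0.70 ± 0.16 (limma adjusted p = 0.0165). AURKB averaged 7.05 RPKM in knockdown cells and 11.3 in control cells and fell by 0.67 ± 0.16 (0.0266). CDCA3 fell by 0.62, FOXM1 by 0.55 and CDCA8 (borealin, of the passenger complex) by 0.55.

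Differences were negative for 46 of 47 members with MIAT knocked down in synchronised cells, with a median of -0.35 against -0.03 over all genes, and 25 were lower at an unadjusted p under 0.05. These differences pool knockdown libraries whose levels differed by the column number in the header, as given below. CDC20 differed by -0.66 (adjusted p = 0.057), MKI67 by -0.59, KIF20A by -0.52, BIRC5 by -0.50, TOP2A by -0.48, PLK1 by -0.30, CDK1 by -0.29 and CENPE by -0.06. Of 55 other mitotic genes PIMREG, SPC24, FAM83D and INCENP, the scaffold of the passenger complex, fell, by 0.71, 0.70, 0.64 and 0.61, and of 4 cyclins and 7 DREAM and MuvB subunits 0 did. The Spearman correlation between difference and gene length was 0.67 over 47 members, against 0.23 over 9330 genes, so shorter members had the lower differences. That was not particular to MIAT. With LINC00704 knocked down it was 0.53 (0.18 over all genes) in synchronised and 0.35 (0.002) in asynchronous cells. With LUCAT1 knocked down it was 0.44 (0.02) and 0.44 (0.03). For windows against asynchronous cells it ran from 0.18 in nuclear input (0.19) to 0.52 in whole-cell input RNA (0.02).

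**Figure D3:**
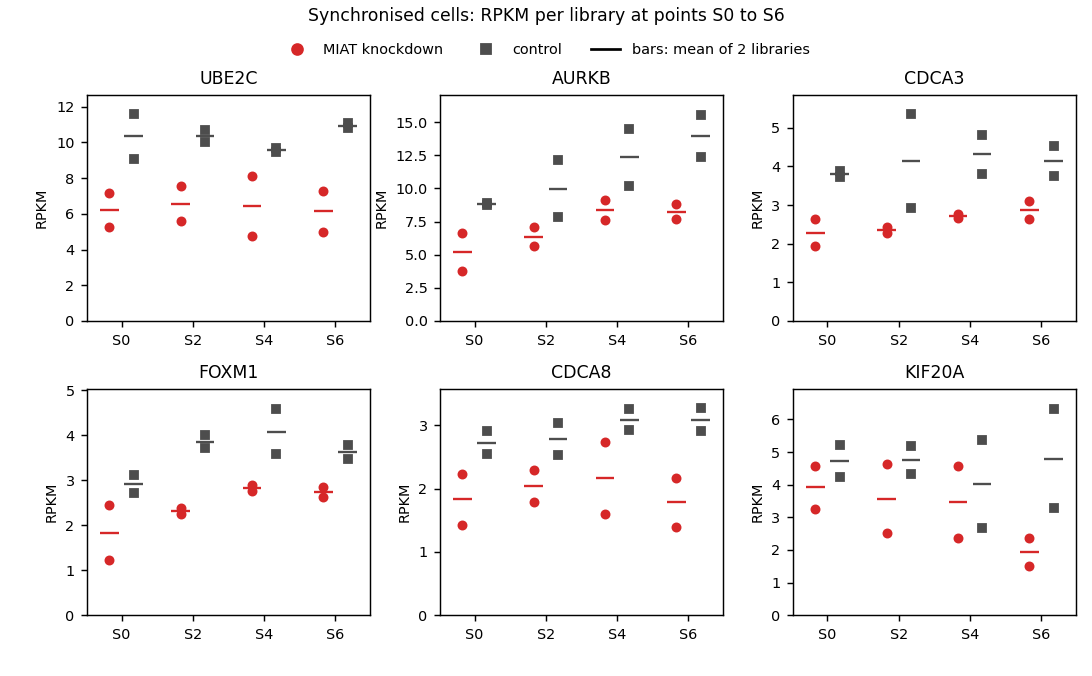
RPKM (linear axis) of UBE2C, AURKB, CDCA3, FOXM1, CDCA8 and KIF20A in each synchronised MIAT knockdown and control library at S0, S2, S4 and S6. All 8 knockdown libraries of UBE2C, at 4.77 to 8.13 RPKM, lie under all 8 control libraries.

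The calls with MIAT knocked down rested on few libraries. None was left without the first S2 knockdown library, and 17 were called without the second S4 knockdown library, 11 without the second S0 and 9 without the first S6 one. The share of all genes called in these fits was not computed. Over S0, S2 and S4 alone, a choice made after seeing the data, CDCA3 and FOXM1 fell, where 2.24% of all genes did. At S6 the median over members was 1.99 and 1.2 RPKM in the knockdown libraries and 2.38 and 2.65 in the control libraries. There, 40 of 47 members had both knockdown libraries below both control libraries, where 22.6% of all genes did, and the median difference was -0.74, against -0.01 over all genes. None was called at S6 (limma; 25 lower at an unadjusted p under 0.05), where 0.147% of all genes fell.

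At S6, TOP2A had 8.00 and 3.71 RPKM in MIAT knockdown cells and 15.1 and 16.2 in control cells, and CDK1 had 4.07 and 1.00 RPKM in knockdown cells and 4.45 and 8.97 in control cells. In both genes the second knockdown library, the one that stood apart, was the lowest of the 16. The difference of the knockdown effect between S6 and S0 was negative for 39 of 47 members (median -0.43), with CDK1 at -1.42, ASPM at -1.33, TOP2A at -1.28, CENPE at -1.22, CENPF at -1.05, MKI67 at -1.01, KIF20A at -0.90, CDC20 at -0.50, BIRC5 at -0.08, AURKB at 0.05, FOXM1 at 0.29 and PLK1 at 0.57. It was called for none (1 lower at an unadjusted p under 0.05, limma; 0% of all genes called), and CENPF, CENPE, ASPM and TOP2A had the smallest p (adjusted p = 0.617 each). The headers number the MIAT knockdown columns 2 and 3 at S0, S2 and S4, and 1 and 2 at S6. Number 2 thus occurs at every point, and the S6 library that stood apart carries it. The median over members was 1.37, 1.78, 1.51 and 1.2 RPKM in the number 2 columns at S0, S2, S4 and S6. In the number 3 columns it was 2.25, 2.21 and 2.64 RPKM at S0, S2 and S4, and in number 1 it was 1.99. Control libraries ran from 2.15 to 2.65 RPKM, so only the number 3 columns lay within their range. UBE2C was below every control library in all columns. The cause of this split was not tested. The difference between S6 and S0 sets numbers 1 and 2 against 2 and 3, so it mixes point and column number.

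With LINC00704 knocked down in synchronised cells, 0 of 47 members were called (limma; 7 lower and 0 higher at an unadjusted p under 0.05), where 0.0212% of all genes were. FOXM1 averaged 2.56 RPKM in knockdown cells and 3.62 in control cells, a difference of -0.50 ± 0.17 (adjusted p = 0.269). TACC3 differed by -0.52, GTSE1, a microtubule-binding protein of G2, by -0.46, PLK1 by -0.35, TPX2 and BIRC5 by -0.32 each, CDC20 by -0.19, MKI67 by -0.16, AURKB by -0.14, KIF20A by -0.05, TOP2A by -0.04, CDK1 by 0.26 and CENPE by 0.30. The median was -0.04, against 0.05 over all genes, and without the second S0 knockdown library 2 members were called. The difference of the effect between S6 and S0 was called for no member in the LINC00704 table (0 unadjusted, 39 of 47 positive) or the LUCAT1 table (0 unadjusted, 30 of 49 negative), where 0% of all genes were called.

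In asynchronous cells the MIAT knockdown gave the most calls. Of 47 members 16 fell and 0 rose, where 31.1% of all 9200 genes fell and 12.6% rose, so the members' share of 34.0% was near the background. BIRC5 had 11.7, 15.7 and 18.2 RPKM in knockdown cells, against 29.0 and 31.7 in control cells, and fell by 1.01 ± 0.19 (limma adjusted p = 0.00585). PLK1 had 3.81, 4.91 and 4.42 RPKM, against 8.46 and 8.51, and fell by 0.92 ± 0.12 (0.00203). AURKB had 5.91, 8.93 and 8.18 RPKM, against 14.1 and 14.7, and fell by 0.91 ± 0.17 (0.00671). For all of these genes each knockdown library was below both control libraries.

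TACC3 fell by 0.97, CDC25B by 0.89, CDC20 by 0.85, GTSE1 by 0.80 and CDCA3 by 0.75 with MIAT knocked down. The remaining 8 of the 16, each by less, were TROAP, TPX2, CDCA8, NCAPH (condensin), KIF2C (a microtubule-depolymerising kinesin), FOXM1, KIF4A (a chromokinesin) and CDC25C (a phosphatase that activates CDK1). KIF20A differed by -0.55 (0.0783), MKI67 by -0.35, TOP2A by -0.31, CDK1 by -0.11 and CENPE by 0.10, and CKAP2L, a spindle protein, had the highest value, 0.32. The median was -0.37, against -0.12 over all genes. By role, 4 of 10 kinases and phosphatases, 4 of 10 spindle genes, 2 of 4 genes of the anaphase-promoting complex and its targets, 2 of 8 kinesins, 2 of 8 kinetochore genes and 0 of 2 cytokinesis genes fell.

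Of 47 members, 23 had every MIAT knockdown library below both control libraries, where 44.8% of all genes did. Without the second control library 8 members were called, without the first 9, and with quantile normalization 9. The Spearman correlation between difference and length was 0.56 over 47 members, against 0.12 over 9198 genes. Outside the 49, 24 of 55 other mitotic genes, 1 of 4 cyclins and 4 of 7 DREAM and MuvB subunits fell, among them PKMYT1 (a kinase that restrains CDK1) by 1.24. CCNF fell by 1.07, PIMREG by 1.01 and NCAPH2 by 0.99.

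The motifs were counted in the promoters of the genes that fell. Of the 9 members that fell in the windows in nuclear nascent RNA and had a promoter, 7 held a CHR-like motif and 9 held CCAAT, against 20 and 20 of the 32 members not called. Of the 12 that fell with MIAT knocked down in asynchronous cells, 5 held a CHR-like motif and 8 held CCAAT, against 22 and 20 of the 28 not called. These counts are small and were not tested.

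LUCAT1 knockdown in asynchronous cells was called for 0 of 48 members (limma; 16 lower and 0 higher at an unadjusted p under 0.05), where 0.209% of all 9550 genes were called. KIF20A had 12.9, 6.25 and 5.39 RPKM in knockdown cells, against 26.3 and 27.3 in control cells (-1.79 ± 0.37, adjusted p = 0.101). CDCA3 had 4.97, 3.31 and 2.91 RPKM, against 9.12 and 9.13 (-1.27, 0.0903), and BIRC5 had 17.2, 17.5 and 17.9 RPKM, against 30.1 and 32.9 (-0.83, 0.0936). All their knockdown libraries were below both controls, as for 25 of 48 members and 31.5% of all genes.

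CDC25B differed by -0.94 (0.0842) with LUCAT1 knocked down, CDC20 by -0.90, PLK1 by -0.68, TOP2A by -0.65, MKI67 by -0.63, AURKB by -0.54, FOXM1 by -0.45, CENPE by -0.28 and CDK1 by -0.05. The median was -0.45, against -0.10 over all genes, with 44 of 48 members negative. The first knockdown library stood apart from the other two, and LUCAT1 itself was highest there. Without it 13 members were called, but the share of all genes called in that fit was not computed, so the count cannot be set against the background.

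LINC00704 knockdown in asynchronous cells was called for 0 of 47 members (limma; 9 lower and 0 higher at an unadjusted p under 0.05), where 0.0557% of all genes were called. FOXM1 had 1.95, 2.00 and 2.06 RPKM in knockdown cells, against 3.53 and 3.42 in control cells (-0.72, adjusted p = 0.157), and PLK1 had 6.03, 6.07 and 5.68 RPKM, against 8.51 and 8.49 (-0.50, 0.256). Both genes were lower in every knockdown library than in both controls, as were 16 of 47 members and 25.2% of all genes. MKI67 differed by -0.65, TACC3 by -0.61, GTSE1 by -0.50, BIRC5 by -0.48, CDC20 by -0.37, KIF20A by -0.35, AURKB by -0.16, TOP2A by -0.14, CENPE by 0.06 and CDK1 by 0.10. The median was -0.14, against -0.07 over all genes.

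**Figure D4:**
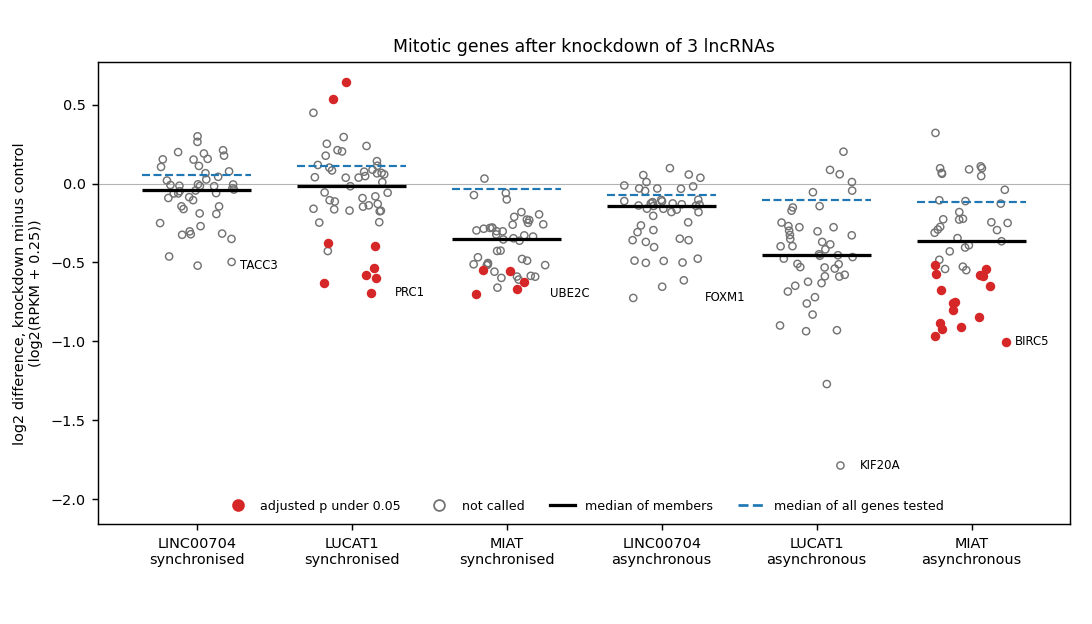
Log2 difference of each member, knockdown minus control, in the 3 synchronised and 3 asynchronous tables, with members as points. In synchronised MIAT cells 46 of 47 points are below 0, and in asynchronous LUCAT1 cells KIF20A is the lowest point at -1.79.

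**Figure D5:**
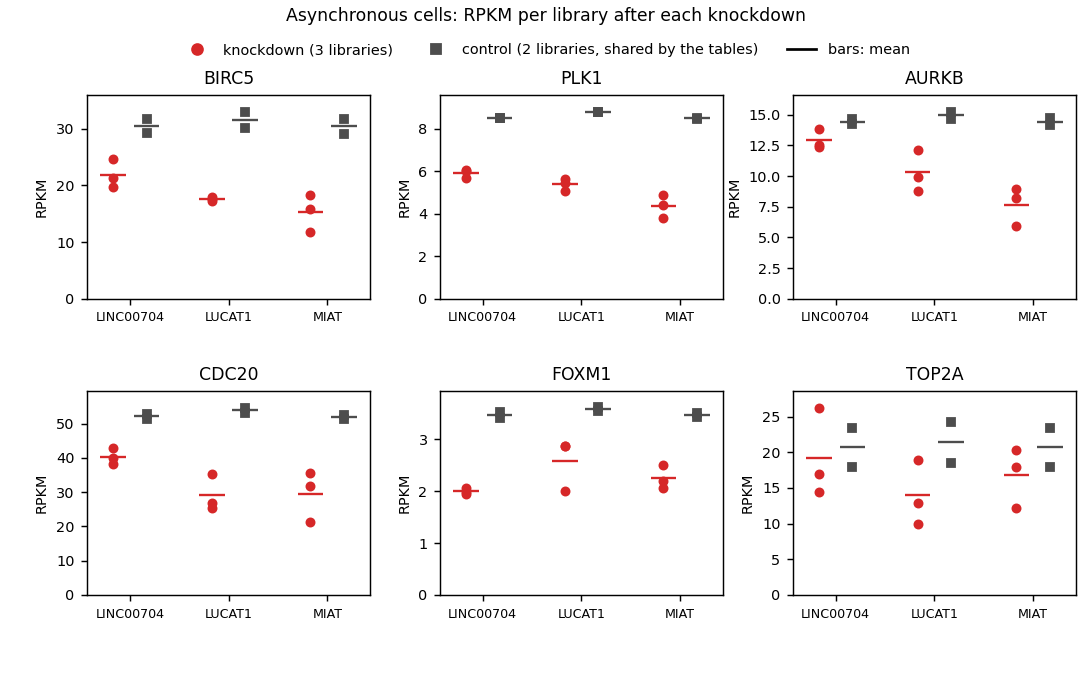
RPKM (linear axis) of BIRC5, PLK1, AURKB, CDC20, FOXM1 and TOP2A in each asynchronous knockdown library (3) and control library (2) of the LINC00704, LUCAT1 and MIAT tables. In the MIAT table BIRC5 lies at 11.7 to 18.2 RPKM with knockdown, against 29.0 and 31.7 in control cells.

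The authors' deposited tables of the same asynchronous comparisons list an FDR for each gene, with the test left unnamed in the file headers. In the authors' deposited table for MIAT, 20 of 49 members were lower and 6 higher at an FDR under 0.05, where 30% and 26.8% of all genes were. In the authors' deposited table for LUCAT1, 10 were lower and 1 higher, where 16.5% and 28.1% of all genes were, and KIF20A had the largest change there, a log2 fold change of -1.70 with an FDR of 5.36e-12. In the authors' deposited table for LINC00704, 0 members were lower or higher, where 1.84% and 5.57% of all genes were. Fold changes near 0 also passed in the authors' deposited table for MIAT, such as 0.08 for SGO2, a protector of centromeric cohesion, with an FDR of 0.0422.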

How the data were processed

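The series holds 96 samples, of which 91 have a column in the 10 deposited tables. The other 5, from chromatin, were not analysed here. RPKM values were made by the authors with STAR 2.5.3, featureCounts 1.6.1, HOMER 4.10.3 and, for 85 samples, Bowtie2 2.3.4.3 on hg38, per the submitters' processing notes, which give no order or settings. The series' design text calls the knockdown libraries strand-specific. The authors' deposited asynchronous tables also give each gene's log2 fold change with its p-value and FDR, from a test that their headers do not name. The processing notes of all 96 samples also list edgeR, without a version. Steps in the low RPKM values gave whole reads for at least 99.9654% of values (within 0.05 read), and so the depths.

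Each table was fitted alone, since tables were scaled separately, with limma 3.58.1 in R 4.3.3 (empirical Bayes with a trend) on log2(RPKM + 0.25) with all its groups, over genes of at least 0.5 RPKM in at least 2 libraries. P-values were two-sided and adjusted (Benjamini-Hochberg) over all genes tested, with a threshold of 0.05. The script was tested on simulated data. Figures were drawn with matplotlib 3.10.9. Members and gene lists were chosen with earlier results of these data known. Named in every comparison were PLK1, CDC20, KIF20A, CDK1, AURKB, BIRC5, TOP2A, MKI67, FOXM1 and CENPE, then up to 8 called members per direction by size, or the 4 with the smallest p where fewer than 4 were called, and up to 4 called genes per direction of the other lists (other mitotic genes, cyclins, DREAM and MuvB subunits). CKAP2L, SGO2 and the members named under the block were chosen after their values were seen.

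In nuclear input RNA all 30 same-number pairs of libraries deviated together (correlations of 0.627 to 0.861), so the blocked fit is given beside it. In every other table at least 1 pair was not over 0.1, except for asynchronous LUCAT1 cells, which have only 2 pairs. Alternatives were the pseudocount, the filter, quantile and median scaling, the block, and leaving out each library.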

Additional observations from a re-analysis of the deposited data

How the results depend on the processing

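Counts are of members called. No member called in the main fit reversed its direction under an alternative. Among differences not called in the main fit, 139 results of single genes under single alternatives changed sign. For the alternative fits, the share of all genes called was computed only for the block in nuclear input RNA and for the points S0, S2 and S4. The other counts are therefore not set against all genes. Whole-cell nascent windows against asynchronous cells gave 0 calls at a pseudocount of 0.1 and 3 with the replicate block, and whole-cell input gave 2 with the block, PLK1 and CDC20. Nuclear nascent RNA gave 6 under quantile normalization, and its T8-10 against T0-2 comparison gave 0 with no filter on low values. With the block, nuclear input gave 21 in the windows and 27 between T8-10 and T0-2. Synchronised MIAT knockdown gave 2 under quantile normalization and 2 over S0, S2 and S4. Asynchronous MIAT knockdown gave 9 under quantile normalization and 28 with the block, and asynchronous LUCAT1 knockdown gave 2 with the block. Outside nuclear input RNA the condition for pairing, that all same-number pairs deviate together, was not met. In whole-cell input and whole-cell nascent RNA the window libraries nevertheless split by number, and the unblocked fits count that split as spread. Same-number correlations over 0.1 were 22 of 30 in whole-cell nascent, 20 of 30 in whole-cell input and 20 of 30 in nuclear nascent RNA, with medians of 0.421, 0.904 and 0.197, and the asynchronous knockdown tables have 2 pairs each. The cause of these changes was not tested.

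With 1 library left out, calls ranged from 0 to 1 in whole-cell nascent windows, 0 to 12 in nuclear nascent windows, 0 to 4 between T8-10 and T0-2 in nuclear nascent RNA, 0 to 4 in nuclear input windows, 0 to 2 in LINC00704, 2 to 10 in LUCAT1 and 0 to 17 in MIAT synchronised cells, and 0 to 13 in LUCAT1 and 8 to 21 in MIAT asynchronous cells. For knockdown against control in the 3 synchronised tables there is no blocked fit. No paired analysis was possible because the numbers of those knockdown columns are not tied to the labels.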
